A study of Mus musculus with 4 samples.

Results

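The p53 pathway and target genes described here are 32 genes chosen by symbol, and all 32 were found among the 46517 rows of the deposited table of expression values. Messenger RNA had been sequenced from mouse LSK cells, sorted as negative for lineage antigens and positive for Sca-1 and c-Kit, a fraction that is known to contain haematopoietic stem cells and early progenitors. The mice were C57BL/6 and 8 to 10 weeks old, and every library comes from the same sorted population. One genotype was Setd2f/f, called wild type for Setd2 by the submitters, and the other was Setd2D/D, called a Setd2 knockout, with 2 libraries each, hereafter the controls and the knockouts. The sources used here do not name the Cre driver, the deleted exons or how many mice stand behind a library. No label says that the replicates came from different mice, so the p-values cover library-to-library spread alone, and that spread may be technical. Levels are in TPM (a length-corrected share of all transcripts in the library), so that levels can be set side by side between genes.

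p53, encoded by Trp53 in the mouse, is a transcription factor that is held at a low protein level by the ubiquitin ligase Mdm2 and by its partner Mdm4. DNA damage and other stresses stabilise the protein, which then binds DNA and activates genes for cell cycle arrest, apoptosis, DNA repair and metabolic restraint, Mdm2 among them. In haematopoietic stem cells p53 is known for its part in quiescence and in the response to radiation. Because p53 is regulated largely as a protein, the Trp53 transcript level does not report its activity, and target transcripts are the usual readout.

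Setd2, which encodes the methyltransferase for trimethylation of histone H3 at lysine 36, was at 78.9 and 68.0 TPM in the controls against 43.4 and 49.5 TPM in the knockouts. The value covers the whole gene, and remaining transcripts without the deleted exons would also add to it. Setd2 itself did not pass limma (adjusted p = 0.329), while the authors' deposited table lists an FDR of 5.84e-06 at a log2 change of -0.73. Setd2D/D replicate 1 stood apart from the other libraries, with a correlation across the 14755 tested genes of 0.912 with its own replicate, while the Setd2f/f libraries correlated at 0.959. Setd2D/D replicate 2 correlated more closely with the Setd2f/f libraries (0.934 and 0.942) than with its replicate. All 10 LSK and stem cell markers were detected, with Kit between 224 and 301 TPM and Ly6a between 46.5 and 127 TPM. The summed level of 14 erythroid markers was 456 to 593 TPM in the controls against 1040 to 1160 TPM in the knockouts. Both Setd2D/D libraries lay above both Setd2f/f libraries for 13 of the 13 tested, where 16.8% of all genes tested did. The summed level of 10 B cell markers was 360 to 666 TPM in the controls against 216 to 312 TPM in the knockouts. For 14 granulocyte and monocyte markers the sums were 2840 to 3450 TPM and 3450 to 5220 TPM, for 8 mast cell and basophil markers 121 to 124 TPM and 140 to 192 TPM, and for 8 megakaryocyte markers 67.0 to 76.7 TPM and 90.8 to 97.0 TPM, controls first. Within the granulocyte and monocyte list, 8 genes had log2 changes above 0 and 6 below, with Mpo and Elane higher in both knockout libraries (ratios of mean TPM 1.88 and 2.11) and Ltf and Ngp lower in both (0.423 and 0.516). Of the 6 tested megakaryocyte markers, 3 had log2 changes above 0 and 3 below. Mean TPM, controls first, was 12.3 and 39.9 for Pf4 and 42.6 and 28.9 for Itga2b. Of 9 T and NK cell markers, 7 were listed at 0 in at least 1 library, and of 8 stromal and endothelial markers, 4 were. The part of these cell type markers in the results for p53 genes was not tested. In bulk RNA, fewer cells of a type and less RNA per cell cannot be told apart.

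p53 binds DNA at pairs of a decamer motif, known as the p53 consensus decamer, in which purines, a C, a pair of A or T, a G and then pyrimidines follow each other. The pattern is its own reverse complement, so that a search of one strand covers both. RefSeq windows from 250 bases before to 50 bases after a gene's start (GRCm38.p6) were found for 25 of the 32 genes. The decamer was present in 11 of their 36 windows, or 30.6%, against 8.36% of all 32851 windows, and some genes have more than 1 window. No window of these genes held a pair of decamers 0 to 13 bases apart, which 0.0731% of all windows did. A match is a description of letters and not a binding site. Sites in introns can lie outside these windows, as the known p53 sites of Mdm2 do. The stretches below are for p53 itself and for long-established target genes, with the decamer in capitals, 5′ to 3′ on the strand of the gene.
Mdm2: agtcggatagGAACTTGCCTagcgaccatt
Ccng1: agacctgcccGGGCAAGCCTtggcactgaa
Sesn1: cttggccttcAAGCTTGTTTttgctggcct
Aen: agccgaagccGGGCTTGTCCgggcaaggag
Trp53: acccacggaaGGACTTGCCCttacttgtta
They lie at chr10:117710925-117710954 (minus strand), chr11:40755452-40755481 (minus), chr10:41887256-41887285 (plus), chr7:78895927-78895956 (plus) and chr11:69580274-69580303 (plus). Counted from the start as 0, the decamers begin at -186 in Mdm2, at -185 in Ccng1, at -173 in Sesn1, at 10 in Aen and at -75 in Trp53. The next 2 stretches belong to Rps27l, a member with higher values in both Setd2D/D libraries, and Phlda3, a member with lower values in both. Neither passed limma. The Rps27l stretch is the 174 bases between its first annotated exon and the next annotated exon (chr9:66946181-66946354, plus strand). It holds 2 decamers, which begin at -210 and -107 counted from an alternative RefSeq start that lies beyond the end of the stretch. In the Rps27l window at its annotated gene start (chr9:66945836-66946135, plus strand) the decamer was not found. The 2 printed stretches are therefore unlike regions, and a link between decamers and direction of change was not tested. The Phlda3 stretch is the 250 bases before its start (chr1:135765835-135766084, plus strand), in which the decamer was not found.
Rps27l: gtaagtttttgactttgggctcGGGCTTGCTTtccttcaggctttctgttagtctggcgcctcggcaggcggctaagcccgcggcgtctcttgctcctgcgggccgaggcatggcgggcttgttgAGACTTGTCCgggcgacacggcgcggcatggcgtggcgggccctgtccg
Phlda3: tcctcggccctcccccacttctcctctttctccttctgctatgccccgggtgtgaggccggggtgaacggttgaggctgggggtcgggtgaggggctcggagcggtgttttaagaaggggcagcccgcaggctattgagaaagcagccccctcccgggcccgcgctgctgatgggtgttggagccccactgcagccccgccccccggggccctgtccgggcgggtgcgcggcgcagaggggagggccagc

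Trp53 was among the most abundant of these genes and its libraries interleaved between the genotypes. Its level was 204 and 221 TPM in the controls against 218 and 206 TPM in the knockouts. No library stood out, and the limma log2 change was -0.0006 with a 95% confidence interval from -0.26 to 0.26 (adjusted p = 0.999). Here and below, a log2 change is Setd2D/D minus Setd2f/f on log2(TPM + 1), and adjusted p is from limma over the 14755 genes that reached a TPM of 1 in 2 or more libraries. Mdm4, the Mdm2-related inhibitor that binds the p53 activation domain, was at 120 and 103 TPM in the controls against 105 and 107 TPM in the knockouts. Its genotypes also overlapped, with a log2 change of -0.07 (95% confidence interval -0.39 to 0.25). Mdm2, the ligase that marks p53 for degradation and is itself a p53 target, was at 62.7 and 51.9 TPM in the controls against 66.7 and 80.8 TPM in the knockouts. Both Setd2D/D values lay above both Setd2f/f values, by a narrow margin for Setd2D/D replicate 1. The Mdm2 log2 change of 0.36 (SE 0.17) did not pass limma (adjusted p = 0.499), and it was 0.22 without either Setd2f/f replicate 2 or Setd2D/D replicate 2. Mdm2 has an FDR of 0.706 in the authors' deposited table, at a log2 change of 0.19.

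**Figure D1:**
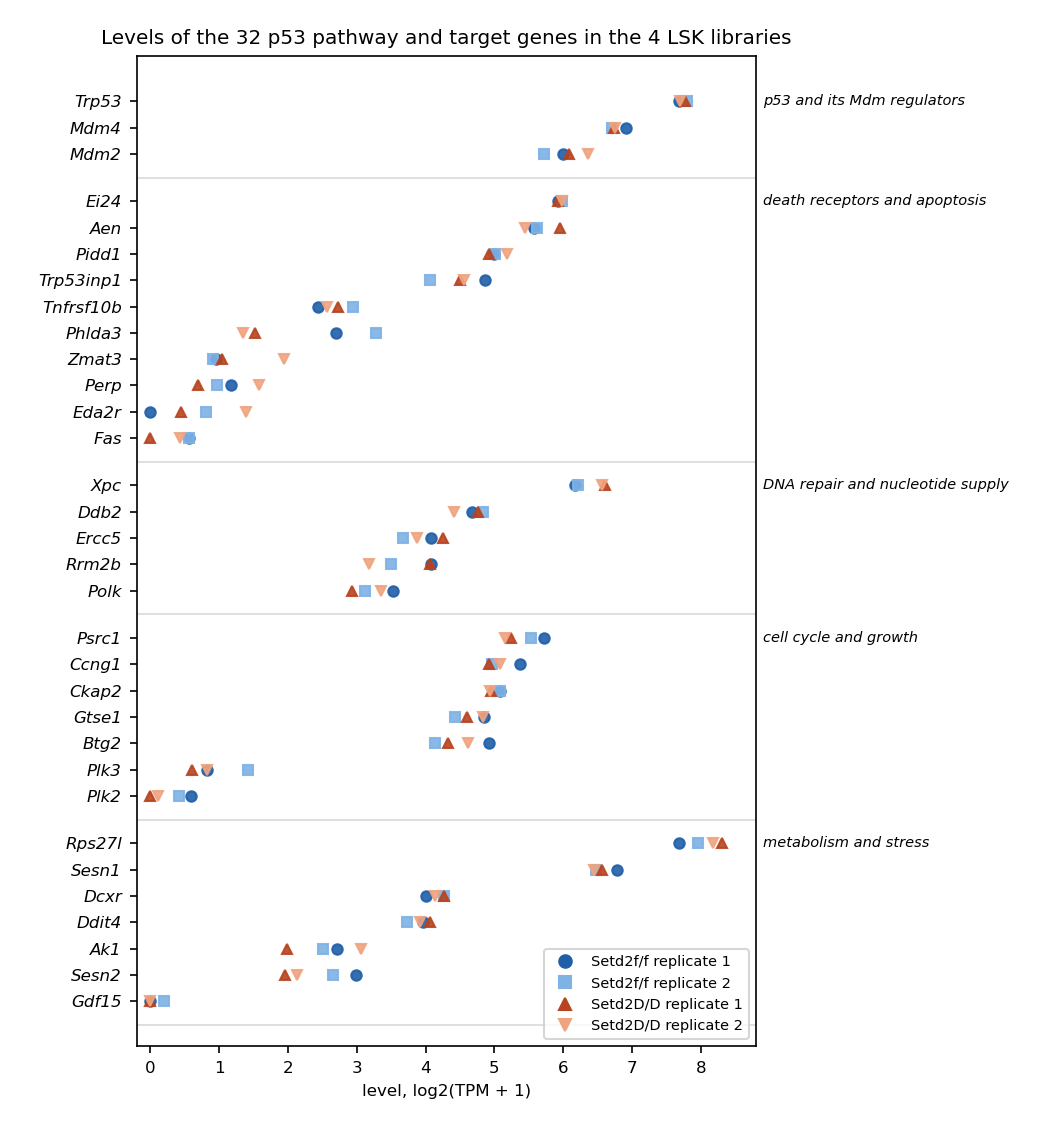
Level of each of the 32 genes as log2(TPM + 1) on the horizontal axis, with 1 symbol per library and genes grouped by role. Trp53 and Rps27l lie highest, and 5 genes (Fas, Eda2r, Plk2, Plk3 and Gdf15) lie too low to be tested.

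Over the whole set, the members did not move in one direction. Of the 32 genes, 27 reached the expression threshold of the test, 12 with a log2 change above 0 and 15 below. Of all 14755 genes tested, 6217 were above 0 and 8538 below. Of the 27, 20 changed by less than 0.2 on the log2 scale, against 6323 of the 14755. limma placed 0 of the 27 past an adjusted p of 0.05 in either direction, where 0.0203% of all genes tested were higher and 0.0474% lower (0.0678% in all). The unadjusted p was under 0.05 for 4 of the 27 (14.8%, against 11.2% of all genes), 2 with higher values in the knockouts (Xpc and Rps27l, where 4.17% of all genes were called) and 2 with lower values (Phlda3 and Psrc1, where 6.99% were). Both Setd2D/D libraries lay above both Setd2f/f libraries for 4 genes, where 16.8% of all genes did, and below them for 4, where 27.6% of all genes did. In either direction, that is 8 of 27 genes, or 29.6%, against 44.3% of all genes tested. Without Setd2D/D replicate 1, the library that stood apart, the log2 change was 0.37 for Xpc, 0.36 for Rps27l and 0.50 for Mdm2. It was -1.65 for Phlda3, -0.47 for Psrc1 and -0.69 for Sesn2. The genotypes of these genes do not overlap, so leaving out 1 library could not change a sign. The median log2 change was -0.0016 over the 27 genes and -0.063 over all genes tested. Past an FDR of 0.05 in the authors' deposited table were 2 of the 32 genes, or 6.25%, against 3.15% of all genes in it. These were Xpc and Rps27l, both higher, as were 1.51% of all its genes, and 0 were lower, as were 1.64%. The smallest p that an exact permutation of 2 and 2 libraries allows is 0.33, and limma reaches smaller values by sharing variance information between genes.

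**Figure D2:**
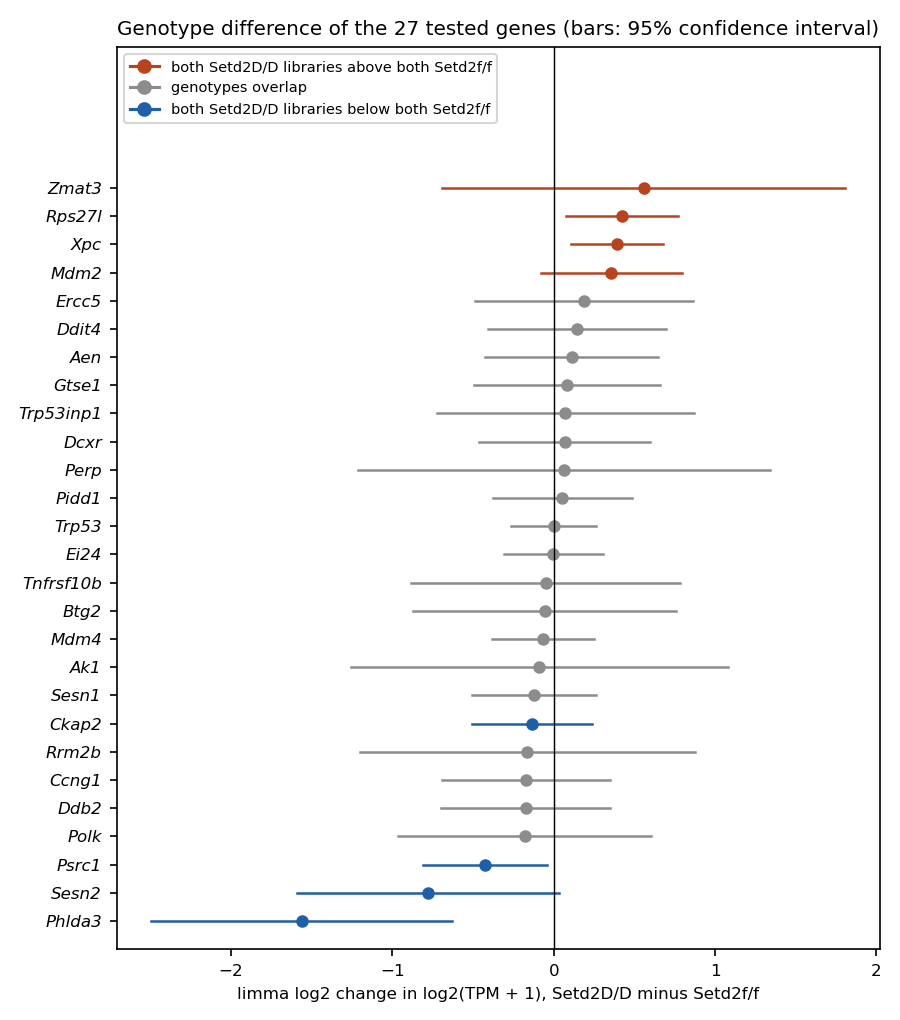
limma log2 change of the 27 tested genes on the horizontal axis, Setd2D/D minus Setd2f/f, with bars for the 95% confidence interval and colours for whether the libraries of the genotypes overlap. Most points lie within 0.2 of zero, and Phlda3 at -1.56 lies farthest from it.

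Among the death receptor and apoptosis genes, 8 of 10 were tested, 5 with log2 changes above 0 and 3 below, at a median of 0.06, and 0 passed limma. The widest gap between genotypes was that of Phlda3. It encodes a small pleckstrin-homology protein that competes with the kinase Akt for membrane lipids and thereby restrains survival signalling. Phlda3 (chromosome 1, 135766119 to 135769136) was at 5.52 and 8.70 TPM in the controls against 1.86 and 1.54 TPM in the knockouts. Both knockout libraries were low and close together, and both lay well below the lower Setd2f/f value. The ratio of mean TPM was 0.239 and the log2 change was -1.56 (SE 0.36), with an unadjusted p of 0.00805 and an adjusted p of 0.329 by limma. Without any 1 library the log2 change stayed between -1.85 and -1.27. For Phlda3 the authors' deposited table lists an FDR of 0.197 and a log2 change of -2.03.

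The other apoptosis genes that are well expressed in LSK cells overlapped between the genotypes. Ei24, an endoplasmic reticulum protein first described as induced by p53, was at 59.6 and 62.0 TPM in the controls against 59.6 and 61.9 TPM in the knockouts. Aen, a nuclease that acts in apoptosis, was at 46.4 and 47.9 TPM in the controls against 61.1 and 42.6 TPM in the knockouts, so that its Setd2D/D libraries lay on either side of the Setd2f/f values. Pidd1, the scaffold that activates caspase-2, was at 30.9 and 31.1 TPM in the controls against 29.3 and 35.3 TPM in the knockouts. The 95% confidence intervals of the log2 change ran from -0.31 to 0.31 for Ei24, from -0.42 to 0.65 for Aen and from -0.38 to 0.48 for Pidd1. Trp53inp1, a nuclear cofactor that promotes p53 phosphorylation, was at 28.0 and 15.7 TPM in the controls against 21.7 and 22.6 TPM in the knockouts. Here the Setd2f/f libraries lay on either side of the Setd2D/D values.

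Surface death receptors were low. Tnfrsf10b, the mouse TRAIL receptor, was at 4.43 and 6.72 TPM in the controls against 5.62 and 4.91 TPM in the knockouts, with overlapping genotypes. Fas, the receptor for Fas ligand, did not exceed 0.48 TPM in any library and was listed at 0 in Setd2D/D replicate 1. Eda2r, an ectodysplasin receptor of the TNF receptor family, was listed at 0 in Setd2f/f replicate 1 and reached 1.63 TPM in Setd2D/D replicate 2. Fas and Eda2r were too low to be tested. Perp, a membrane protein of desmosomes and apoptosis, was at 1.25 and 0.96 TPM in the controls against 0.61 and 2.0 TPM in the knockouts. Zmat3, a zinc finger RNA-binding protein, was at 0.93 and 0.88 TPM in the controls against 1.05 and 2.83 TPM in the knockouts. Both Zmat3 values in Setd2D/D were above both in Setd2f/f, but the log2 change of 0.56 (adjusted p = 0.694) was 0.11 without Setd2D/D replicate 2.

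Of the 5 DNA repair genes, all tested, 2 had log2 changes above 0 and 3 below, at a median of -0.16, and 0 passed limma. Xpc alone had genotypes that did not overlap. Xpc encodes the protein that recognises helix distortion and starts global genome nucleotide excision repair. Xpc (chromosome 6, 91489305 to 91515888) was at 71.0 and 73.3 TPM in the controls against 96.6 and 93.7 TPM in the knockouts. The replicates of each genotype nearly coincided, and the gap between genotypes was wider than either spread. The ratio of mean TPM was 1.32 and the log2 change was 0.39 (SE 0.11), with an unadjusted p of 0.0165 and an adjusted p of 0.388 by limma. The log2 change was between 0.37 and 0.42 when any 1 library was left out. In the authors' deposited table Xpc is higher in Setd2D/D, with a log2 change of 0.44 and an FDR of 0.0327. No exon of another annotated gene overlaps the Xpc exons.

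The other repair genes overlapped between genotypes. Ddb2, which with Ddb1 senses ultraviolet lesions for the same repair pathway, was at 24.6 and 27.6 TPM in the controls against 26.2 and 20.2 TPM in the knockouts. Of its exon bases, 23.8% overlap the gene Acp2 on the opposite strand, and whether the libraries kept strand is not given in the sources used here. Ercc5, the endonuclease that cuts on the 3′ side of a lesion, was at 15.9 and 11.7 TPM in the controls against 18.0 and 13.7 TPM in the knockouts. Polk, a translesion DNA polymerase, was at 10.6 and 7.67 TPM in the controls against 6.62 and 9.24 TPM in the knockouts. Rrm2b, the p53-inducible subunit of ribonucleotide reductase, was at 15.8 and 10.3 TPM in the controls against 15.8 and 8.04 TPM in the knockouts. An antisense transcript overlaps 8.0% of its exon bases. In both genotypes Rrm2b replicates differed by more than the genotype means, which were 13.1 ± 3.91 and 11.9 ± 5.47 TPM (SD, n = 2 libraries each). For Ddb2, Ercc5, Polk and Rrm2b the limma adjusted p was between 0.784 and 0.908.

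**Figure D3:**
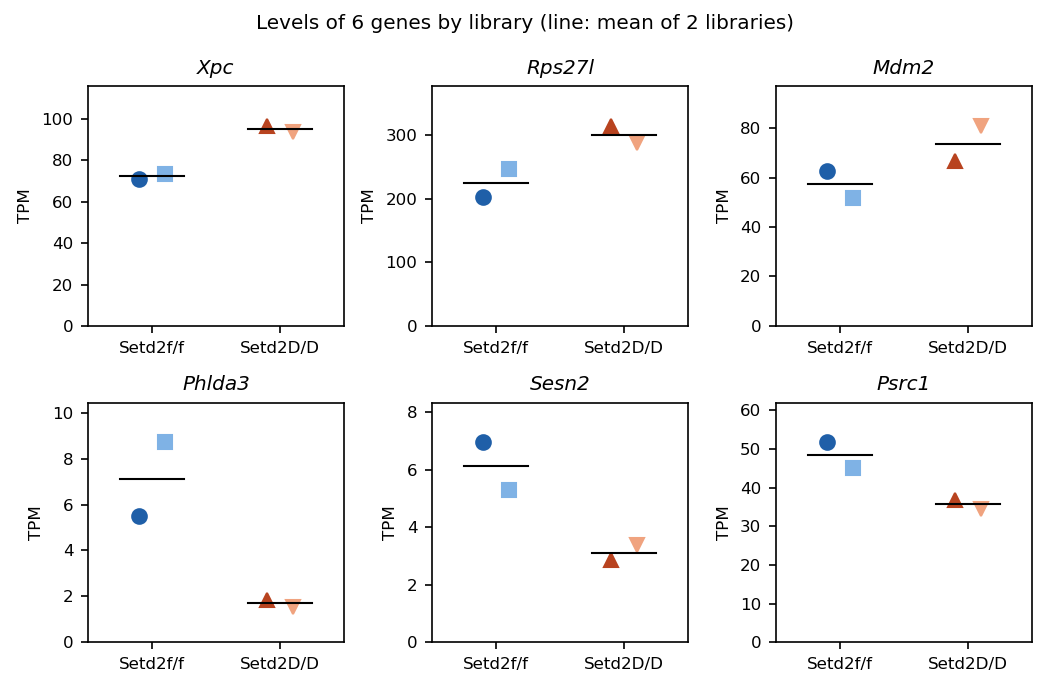
TPM of Xpc, Rps27l, Mdm2, Phlda3, Sesn2 and Psrc1 in each library, by genotype, with each vertical axis starting at 0 and a line at the mean of 2 libraries. Xpc, Rps27l and Mdm2 lie higher in both Setd2D/D libraries, and Phlda3, Sesn2 and Psrc1 lie lower in both.

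Of the 7 growth and cell cycle genes 5 were tested, 1 with a log2 change above 0 and 4 below, at a median of -0.13, and 0 passed limma. The unadjusted p was under 0.05 for 1 of them, Psrc1. Psrc1 encodes a microtubule-binding protein of the mitotic spindle. Its level was 51.7 and 45.1 TPM in the controls against 36.9 and 34.5 TPM in the knockouts, so that both knockout libraries lay below both controls. The ratio of mean TPM was 0.737 and the log2 change was -0.43 (SE 0.15, unadjusted p = 0.0352, adjusted p = 0.423 by limma). For Psrc1 the authors' deposited table lists an FDR of 0.691 and a log2 change of -0.29. Ckap2, a spindle protein as well, was at 32.9 and 32.7 TPM in the controls against 30.0 and 29.7 TPM in the knockouts. The Ckap2 genotypes did not overlap, but the ratio of mean TPM was only 0.909 and the adjusted p was 0.762. Gtse1, a microtubule protein that exports p53 from the nucleus, was at 27.9 and 20.4 TPM in the controls against 23.3 and 27.6 TPM in the knockouts, with overlapping genotypes. Among 20 mitosis genes, none of them members, 14 had log2 changes above 0 and 6 below, 0 passed limma, and the median was 0.098. The unadjusted limma p was under 0.05 for 5 of the 20 (25%), against 11.2% of all genes tested in either direction. All 5 had higher values in the knockouts, as did 4.17% of all genes tested. The authors' deposited table has 1 of the 20 past an FDR of 0.05 (5.0%, against 3.15% of all genes in it). Cdk1, the mitotic kinase, was at 193 and 201 TPM in the controls against 258 and 244 TPM in the knockouts.

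Ccng1 and Btg2, both long-known p53 targets, did not separate the genotypes. Ccng1, a cyclin that brings the phosphatase PP2A to Mdm2, was at 40.5 and 30.3 TPM in the controls against 29.3 and 32.8 TPM in the knockouts. Btg2, an antiproliferative cofactor of mRNA deadenylation, was at 29.2 and 16.6 TPM in the controls against 19.1 and 23.4 TPM in the knockouts. In both genes Setd2f/f replicate 1 was the highest library. Of the polo-like kinases of the stress response, Plk3 was between 0.53 and 1.67 TPM and Plk2 did not exceed 0.50 TPM, with 0 listed in Setd2D/D replicate 1. Neither was tested. Btg2 and the Plk genes also respond to cell handling, and of 18 immediate early and dissociation genes 16 were tested, of which 1 (6.25%, against 11.2% of all genes) had an unadjusted p under 0.05 (Hspa1b, at 2.95 and 2.27 TPM in the controls against 8.01 and 8.65 TPM in the knockouts). The summed level of those 18 genes was 156 to 169 TPM in the controls against 153 to 163 TPM in the knockouts. The part of cell handling in the Btg2 and Plk values was not tested.

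In the metabolic and stress group 6 of 7 genes were tested, 3 above and 3 below 0, at a median log2 change of -0.011, and 0 passed limma. Rps27l was higher and Sesn2 lower in both Setd2D/D libraries. Rps27l, a ribosomal protein paralogue that binds Mdm2, had the highest level of the 32 genes. Rps27l (chromosome 9, 66946086 to 66949516) was at 203 and 247 TPM in the controls against 315 and 287 TPM in the knockouts. The genotypes did not overlap, the ratio of mean TPM was 1.34, and the log2 change was 0.42 (SE 0.13, unadjusted p = 0.0260, adjusted p = 0.407 by limma). The authors' deposited table has Rps27l higher in Setd2D/D, with a log2 change of 0.45 and an FDR of 0.0352. Rps27l shares much of its coding sequence with Rps27, so the split of reads between the 2 genes is uncertain. Rps27 itself was at 3866 and 3731 TPM in the controls against 3660 and 4248 TPM in the knockouts, with overlapping genotypes and a log2 change of 0.05.

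The sestrins, which restrain the growth kinase complex mTORC1 when amino acids are scarce, include 2 members of the set. Sesn2 was at 6.94 and 5.28 TPM in the controls against 2.87 and 3.37 TPM in the knockouts. Both knockout libraries were lower, with a ratio of mean TPM of 0.511 and a log2 change of -0.78 (SE 0.31, unadjusted p = 0.0564, adjusted p = 0.461 by limma). Sesn2 has an FDR of 0.314 in the authors' deposited table, at a log2 change of -0.91. Sesn1, the more abundant paralogue, was at 109 and 87.9 TPM in the controls against 93.1 and 86.5 TPM in the knockouts, and overlapped. The difference between the paralogues was not tested. Sesn3, which is not a member, was at 18.1 and 14.1 TPM in the controls against 17.3 and 17.4 TPM in the knockouts, and overlapped. Sesn2 is also a target of the amino acid stress factor Atf4, and values of other Atf4 targets lay on both sides. Asns, the asparagine synthetase, was at 14.8 and 14.5 TPM in the controls against 56.4 and 29.8 TPM in the knockouts, while Trib3, a pseudokinase, was at 4.80 and 5.43 TPM in the controls against 2.69 and 1.58 TPM in the knockouts. Of the 13 tested genes in that list, which includes Sesn2, 7 had log2 changes above 0 and 6 below, and 0 passed limma. The unadjusted limma p was under 0.05 for 2 with higher and 1 with lower values in the knockouts (23.1%, against 11.2% of all genes tested). The authors' deposited table has 1 of the 15 genes it lists past an FDR of 0.05 (6.67%, against 3.15% of all genes in it). That gene is Asns, with a log2 change of 1.61 and an FDR of 8.68e-10. The part of Atf4 in the Sesn2 values was not tested.

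Other stress genes of the set overlapped between the genotypes. Ddit4, an mTORC1 inhibitor also induced by hypoxia and glucocorticoids, was at 14.6 and 12.3 TPM in the controls against 15.8 and 14.1 TPM in the knockouts. Dcxr, a carbonyl and xylulose reductase, was at 14.99 and 18.3 TPM in the controls against 18.2 and 16.6 TPM in the knockouts. Ak1, an adenylate kinase, was at 5.56 and 4.69 TPM in the controls against 2.96 and 7.33 TPM in the knockouts, so that its knockout libraries lay on either side of the controls. Gdf15, a secreted stress cytokine that is strongly p53-inducible in other tissues, was listed at 0 in 3 libraries and at 0.15 TPM in Setd2f/f replicate 2.

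The Setd2f/f libraries differed from each other for many p53 targets. Of the 27 tested genes, 11 (40.7%) were at least 1.2 times as high in Setd2f/f replicate 1 as in replicate 2, against 26.3% of all genes tested, and 4 were at least 1.2 times as high in replicate 2, against 18.8%. The 11 were Mdm2, Perp, Trp53inp1, Polk, Ercc5, Rrm2b, Ccng1, Btg2, Gtse1, Sesn1 and Sesn2, and the widest ratios were 1.79 for Trp53inp1, 1.76 for Btg2 and 1.54 for Rrm2b. For 16 of the 27 genes (59.3%, against 45.4% of all genes tested) the gap between the Setd2f/f libraries was wider than the difference between genotypes on the log2 scale. All 10 B cell markers were also at least 1.2 times as high in Setd2f/f replicate 1, and the part of B lineage cells in the p53 gene values was not tested.

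**Figure D4:**
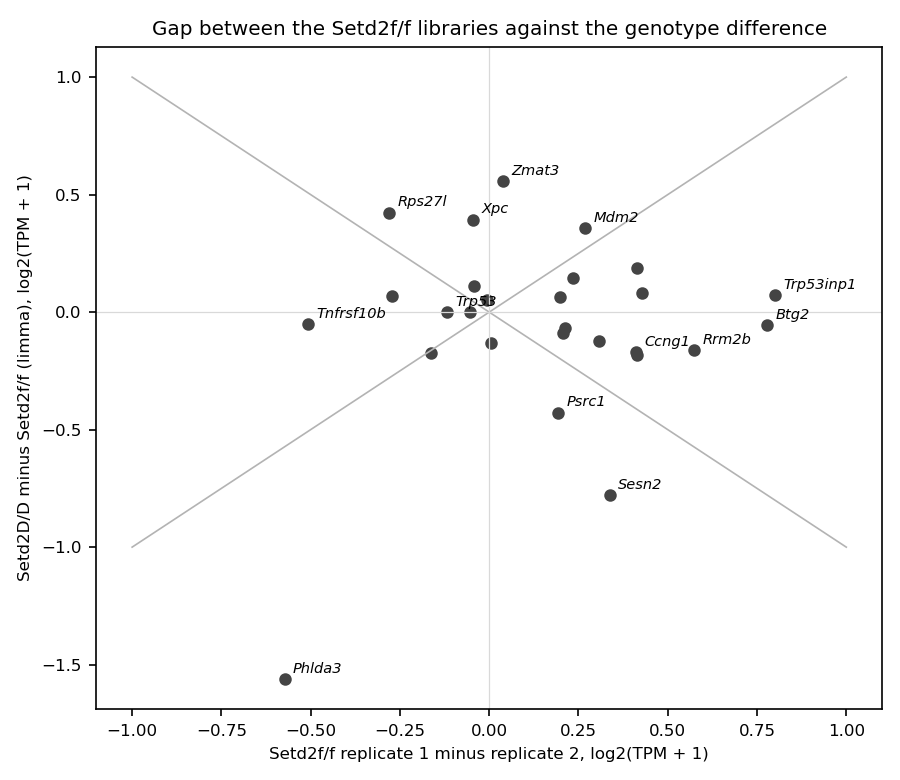
Each point is 1 of the 27 tested genes, with Setd2f/f replicate 1 minus replicate 2 on the horizontal axis and the limma genotype difference on the vertical axis, both on log2(TPM + 1). Grey diagonals mark equal size, and Phlda3, Sesn2, Psrc1, Xpc, Rps27l, Mdm2 and Zmat3 lie where the genotype difference is the larger.

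Beyond these 32 genes, 58 further genes of the pathway were examined, of which 52 were tested. limma placed 0 of the 52 past an adjusted p of 0.05, and the unadjusted p was under 0.05 for 3 with higher and 2 with lower values in Setd2D/D. Together these are 9.62% of the 52, against 11.2% of all genes tested. Their median log2 change was -0.071, near the -0.063 of all genes tested. Cdkn1a, the p21 inhibitor of cyclin-dependent kinases and the classical p53 target, was at 13.3 and 13.9 TPM in the controls against 13.2 and 18.8 TPM in the knockouts, and overlapped. The p53 relatives Trp63 and Trp73 were listed at 0 in all 4 libraries, as was Cdkn2a, whose Arf product inhibits Mdm2.

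Of the pro-apoptotic Bcl2 family targets of p53, Bax, Pmaip1 and Bbc3 did not pass limma, and differences between them were not tested. Bax, the mitochondrial pore former, was at 60.4 and 66.4 TPM in the controls against 45.6 and 45.3 TPM in the knockouts (log2 change -0.47, SE 0.13, adjusted p = 0.377 by limma). Pmaip1, which encodes Noxa, was at 0.94 and 0.99 TPM in the controls against 2.95 and 3.0 TPM in the knockouts (log2 change 1.02, SE 0.36, adjusted p = 0.428 by limma). Neither gene's genotypes overlapped. Bbc3, which encodes Puma, was at 8.92 and 7.80 TPM in the controls against 8.89 and 6.10 TPM in the knockouts, and overlapped. Further target genes with low unadjusted p included Ephx1, a microsomal epoxide hydrolase, at 2.17 and 3.32 TPM in the controls against 6.37 and 7.44 TPM in the knockouts. The authors' deposited table has 2 of the 54 further genes it lists past an FDR of 0.05, both lower in Setd2D/D, which are Ier5 and Trp53bp1. That is 3.7%, against 3.15% of all genes in it. Ier5, an immediate early gene product that acts on heat shock factor, was at 12.6 and 9.50 TPM in the controls against 2.49 and 6.67 TPM in the knockouts, and the authors' deposited table lists a log2 change of -1.20 (FDR 0.0025), while the limma adjusted p was 0.446.

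Upstream of p53, the genotypes overlapped for the damage kinases Atm, Chek1 and Chek2 and did not for Atr. Atm was at 29.1 and 34.9 TPM in the controls against 32.9 and 43.1 TPM in the knockouts, and Chek2 was at 77.8 and 71.8 TPM in the controls against 92.6 and 72.5 TPM in the knockouts. Chek1 was at 62.0 and 57.9 TPM in the controls against 59.6 and 44.9 TPM in the knockouts. Atr was at 22.5 and 20.96 TPM in the controls against 27.2 and 22.7 TPM in the knockouts (limma adjusted p = 0.732). Hipk2, a kinase of p53 itself, was at 14.7 and 12.4 TPM in the controls against 21 and 16.4 TPM in the knockouts, without overlap (limma adjusted p = 0.536). Ubiquitin ligases that act on p53 besides Mdm2 lay on opposite sides of zero. Rfwd2 (Cop1) was at 96.2 and 80.3 TPM in the controls against 120 and 125 TPM in the knockouts (log2 change 0.47, adjusted p = 0.390 by limma). Rchy1 (Pirh2) was at 56.3 and 47.2 TPM in the controls against 34.0 and 43.2 TPM in the knockouts (log2 change -0.42, adjusted p = 0.483 by limma). Of the 17 tested genes that act upstream, 7 had log2 changes above 0 and 10 below, with a median of -0.0055. The genotypes did not overlap for 47.1% of these 17, against 44.3% of all genes tested.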

How the data were processed

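The expression table that the authors deposited holds TPM values for 46517 genes in 4 libraries. Per the submitters' processing notes, RSEM, cutadapt and edgeR were used with mm10, and no roles or versions are stated. The second deposited table holds the authors' comparison for 23955 genes and, per the file headers, lists for each a linear fold (ratio), its log2, mean abundance as log2 CPM, the F statistic (a score), the p-value and the FDR. Gene names that contain a comma had displaced the fields of 5 rows in the first table and 2 in the second, and these were rejoined.

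TPM keeps no read depth, so counting error is unknown and no count model was used. The 14755 genes that reached a TPM of 1 in 2 or more libraries were transformed to log2(TPM + 1) and fitted with limma 3.58.1 in R 4.3.3, with 1 genotype term, an abundance trend in the variance prior, 2-sided tests and Benjamini-Hochberg adjustment at 0.05 over all genes. The pseudocount makes changes of low genes look smaller. The test was checked on simulated data. The members, the other lists and the tests were chosen with earlier results of these data known. The text names every member, Setd2, Cdkn1a, Bbc3, Bax, Pmaip1 and up to 3 genes per other list that had the smallest p among those averaging 1 TPM or more. Genes named otherwise (Rps27, Acp2, Atm, Atr, Chek1, Chek2, Hipk2, Sesn3, Mpo, Elane, Ltf, Ngp, Ier5, Trp53bp1, Apaf1, Notch1 and genes listed at 0) were chosen after their values were seen. One further pathway gene is not reported here. Positions are from GENCODE M21 on GRCm38, which is mm10, and all 32 members matched by identifier. Promoter sequences are from RefSeq on GRCm38.p6. Alternatives were other pseudocounts, filters and scalings, no trend, a replicate block and leaving out each library.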

Additional observations from a re-analysis of the deposited data

How the results depend on the processing

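Under all 13 alternatives, limma placed 0 of the tested members past an adjusted p of 0.05 in either direction, and 0 of the other pathway genes. The median log2 change of the members stayed between -0.092 and 0.046, within the 0.101 that is 1 SD between replicate libraries. The number with an unadjusted p under 0.05 was 4, with 5 where no filter on low values was used, 2 without the abundance trend, and between 1 and 2 when any 1 library was left out. Fewer samples leave fewer residual degrees of freedom there. The number whose genotypes do not overlap was 8, between 7 and 10 under other filters and scalings, and between 15 and 19 when 1 library was left out, where a lone library has no spread to overlap. With a replicate block the counts were 0 past the adjusted p and 4 with an unadjusted p under 0.05, and it changed no call. The labels do not say whether same-numbered libraries were paired. Their deviations correlated at 0.0414 across genes, which cannot decide this with 2 libraries per genotype. Of 349 values for single members under the alternatives, 315 kept their sign and 34 did not, and the latter belong to 18 genes whose log2 change was at most 0.19 in size. After rescaling by trimmed means of M values the log2 change was 0.026 for Trp53 and 0.0246 for Ei24. After rescaling by median of ratios the log2 change was 0.0481 for Trp53 and 0.0465 for Ei24. After quantile normalization the log2 change was 0.0197 for Trp53, 0.0644 for Ei24 and 0.0126 for Btg2. When any 1 library was left out, the log2 change ran from -0.0597 to 0.0586 for Trp53, from -0.173 to 0.0393 for Mdm4, from -0.3036 to 0.204 for Tnfrsf10b, from -0.3833 to 0.5146 for Perp, from -0.0769 to 0.1835 for Pidd1, from -0.142 to 0.3676 for Aen, from -0.0292 to 0.0259 for Ei24, from -0.3275 to 0.4723 for Trp53inp1 and from -0.3517 to 0.0055 for Ddb2. It ran from -0.3938 to 0.0326 for Polk, from -0.0175 to 0.3961 for Ercc5, from -0.6093 to 0.2831 for Rrm2b, from -0.3758 to 0.0344 for Ccng1, from -0.4451 to 0.3329 for Btg2, from -0.1315 to 0.2978 for Gtse1, from -0.2763 to 0.0299 for Sesn1, from -0.0688 to 0.2027 for Dcxr and from -0.6256 to 0.4473 for Ak1. For the other 9 genes, among them Xpc, Rps27l, Mdm2, Phlda3, Sesn2 and Psrc1, the sign held under each alternative run. For the genes named here, leaving out 1 library could not change the sign, because their genotypes do not overlap. TPM keeps no depth, so what depth limits could not be stated, and the 5 untested members were given as values only.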

Other observations

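The deposited fold changes and the deposited TPM values differ for some genes of the pathway, although both describe the same libraries. Over 11212 tested genes with a mean TPM of at least 5, the log2 ratio of mean TPM and the log2 change of the authors' deposited table differed by a median of 0.057, and by at least 0.3 for 8.32% of them. Of 23 members at that level, 1 differed by at least 0.3, which was Ak1, with a log2 ratio of TPM of 0.0056 and a log2 change of -0.58 in the authors' deposited table. Of 47 further pathway genes, 4 did, of which 3 are given here. Apaf1, the core of the apoptosome, has a log2 ratio of TPM of -0.15 and a log2 change of 0.33 in the authors' deposited table. Notch1, a receptor of lymphoid commitment, has -0.64 from TPM and -0.16 in the authors' deposited table. Trp53bp1, a damage response scaffold, has -0.14 from TPM and -0.45 in the authors' deposited table, where it passes the FDR (0.0298). For Xpc, Rps27l, Phlda3 and Sesn2 the measures differed by at most 0.056. Mdm2 has a log2 ratio of TPM of 0.36 and a log2 change of 0.19 in the authors' deposited table, and Psrc1 has -0.44 from TPM and -0.29 in the authors' deposited table. The cause of these differences was not tested.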
